A study of Mus musculus with 8 samples.

Results

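iNKT-like cells are described here by their T cell receptor chains alone. A cell was counted as iNKT-like when it carried a productive TRA chain (the receptor's alpha chain) that joined TRAV11 or TRAV11D to TRAJ18, together with exactly 1 productive TRB chain (the beta chain). By this rule 413 cells were iNKT-like, out of 6223 cells with exactly 1 TRB and 6686 cells with any productive chain. The cells were CD45+ immune cells sorted from brain parenchyma of C57BL/6 mice, in 4 receptor libraries, 2 from each of the genotypes 5xFAD and 5xFAD;Cxcr6-/-. Both genotypes carry the 5xFAD transgenes, which encode human amyloid precursor protein and presenilin with familial Alzheimer's disease mutations, and the second also lacks CXCR6, a chemokine receptor of tissue-resident T cells and natural killer T cells. The series asks how CXCR6 shapes T cells that stay in the brain. The labels give neither the age of the mice nor whether a library is 1 mouse or a pool, so the spread among libraries may be technical. Permutation p-values rest on that spread alone, while those for segments and residues also rest on counts within libraries. No p-value here is known to measure the spread among mice.

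Invariant natural killer T (iNKT) cells recognise lipids presented by CD1d, an MHC class I-like molecule, and respond rapidly with cytokines. Their alpha chain is nearly the same in every cell, because TRAV11 joins TRAJ18 with little variation at the junction, while the beta chain uses a few TRBV segments with a diverse CDR3 (the loop formed where V, D and J meet). In mice the beta chain is known to come mostly from the Vβ8 segments, named TRBV13 here, with TRBV29 (Vβ7) and TRBV1 (Vβ2) as further partners. The TRA segments defined the cells and are therefore no result. They also supply most bases of the alpha CDR3, so the rule leaves mainly the junction free to vary. Of the beta chain the rule used only the number of chains. Its segments and CDR3, the alpha CDR3 sequence itself and any second alpha chain were not used to choose the cells.

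The 4 libraries held 213 and 158 iNKT-like cells for 5xFAD and 23 and 19 for 5xFAD;Cxcr6-/-. They were 10.98% and 6.72% of cells with 1 TRB in 5xFAD, and 3.36% and 1.52% in 5xFAD;Cxcr6-/-. Library values are given in this order throughout. The few 5xFAD;Cxcr6-/- cells limit every comparison between genotypes, and with 2 libraries against 2 an exact permutation test cannot give a p below 0.333. The other cells with 1 TRB numbered 1727, 2192, 661 and 1230. The median UMI count (molecules counted per chain) of the TRB was 8 to 10 in both classes, and that of the invariant TRA was 3, 3, 3 and 4. Barcodes found in more than 1 library numbered 28, of which 5 were iNKT-like in at least 1 of them, and 0 of these barcodes shared a chain between libraries. Intervals are exact 95% Clopper-Pearson intervals. Limits given for a count of 0 are 3 counts divided by the total and are not the exact upper limits. Bounds on a fold made from them take the share in the other class as exact. Intervals and limits cover counting error only.

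The alpha chain CDR3 was 45 bases long in all 413 cells, and its variation sat almost wholly in 1 codon. The germline end of TRAV11 (GRCm38, chromosome 14, 53519847 to 53519859, plus strand) and the germline start of TRAJ18 (chromosome 14, 54200777 to 54200811, plus strand) supply 13 and 35 bases of the CDR3. They are shown first, followed by the 10 variants found in 2 or more cells, because together they show which bases the germline can account for. Capitals mark the fourth codon and any base elsewhere that differs from variant 1.
TRAV11 germline end: tgtgtggtgggcg
TRAJ18 germline start: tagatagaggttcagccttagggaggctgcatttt
variant 1: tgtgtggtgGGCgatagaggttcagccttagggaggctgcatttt
variant 2: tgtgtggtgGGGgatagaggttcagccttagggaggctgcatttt
variant 3: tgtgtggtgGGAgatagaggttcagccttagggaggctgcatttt
variant 4: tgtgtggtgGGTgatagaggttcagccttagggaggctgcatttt
variant 5: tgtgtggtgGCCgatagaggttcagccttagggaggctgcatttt
variant 6: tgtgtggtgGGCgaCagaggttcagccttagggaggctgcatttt
variant 7: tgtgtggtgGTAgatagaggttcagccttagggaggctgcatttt
variant 8: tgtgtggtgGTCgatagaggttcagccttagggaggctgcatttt
variant 9: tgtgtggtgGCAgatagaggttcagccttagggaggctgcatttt
variant 10: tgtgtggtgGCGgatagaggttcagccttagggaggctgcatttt

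Variants 1 to 4 differ only in the third base of the fourth codon, counted as position 12 from the first base of the CDR3, and all encode glycine there. Against variant 1 they carry C12G, C12A and C12T. Variant 1 was found in 153 cells, variant 2 in 134, variant 3 in 51 and variant 4 in 50, which together made up 93.9% of iNKT-like cells. All 4 were present in every library. The 15 variants seen encoded 5 different CDR3s, and 394 cells (95.4%) shared the commonest one.

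Germline bases accounted for these variants to different degrees. Variant 1 is covered in full by the 13 bases of TRAV11 followed by TRAJ18 bases, with 1 base that either segment can supply. Variant 3 is covered by 11 TRAV11 bases and 34 TRAJ18 bases with 0 bases left over. Variants 2 and 4 each hold 1 base found in neither germline end, at position 12. TRAV11D, a near copy of TRAV11, supplies 12 bases that equal the first 12 of TRAV11. The V region of 463 of 464 invariant contigs equalled both segments, so the 413 cells, all labelled TRAV11, cannot be assigned to one of the 2.

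In 19 cells the fourth residue was not glycine. Alanine, from variants 5, 9, 10 and 13, was encoded by G11C alone or with a second change at position 12. Valine came from variants 7 (G11T with C12A, 3 cells) and 8 (G11T, 3 cells), and single cells carried glutamine or isoleucine. Variant 7 is covered by 10 TRAV11 bases and the whole 35-base start of TRAJ18, so a join without added bases also gives valine. Cells with another residue numbered 13 of 213, 3 of 158, 2 of 23 and 1 of 19. Variant 6, found in 4 cells, carries T15C, a silent change in the next codon that lies inside the TRAJ18 bases.

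For variant 1 the genotypes could not be separated from the spread between libraries. Variant 1 made up 34.3% of iNKT-like cells in 5xFAD library 1 (73 cells, interval 27.9 to 41.1) and 39.9% in 5xFAD library 2 (63 cells, 32.2 to 48.0). In 5xFAD;Cxcr6-/- it made up 52.2% (12 cells, 30.6 to 73.2) and 26.3% (5 cells, 9.15 to 51.2). The 5xFAD;Cxcr6-/- values were the highest and the lowest of the 4, so the groups overlapped. Their means were 37.1% ± 3.96 and 39.2% ± 18.3 (SD, n = 2), a difference of 2.17 percentage points (exact two-sided permutation p = 1). Without 5xFAD;Cxcr6-/- library 1 the difference was -10.8 percentage points, and without 5xFAD;Cxcr6-/- library 2 it was 15.1. By cells, variant 2 was the commonest in 5xFAD;Cxcr6-/- library 2, with 36.8% (7 of 19) against 32.4%, 33.5% and 21.7% in the others. With each TRB sequence counted once per library, it also led in 5xFAD library 1, with 34.2% (65) against 30% (57) for variant 1. Variant 1 kept the lead in 5xFAD library 2 and 5xFAD;Cxcr6-/- library 1.

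**Figure D1:**
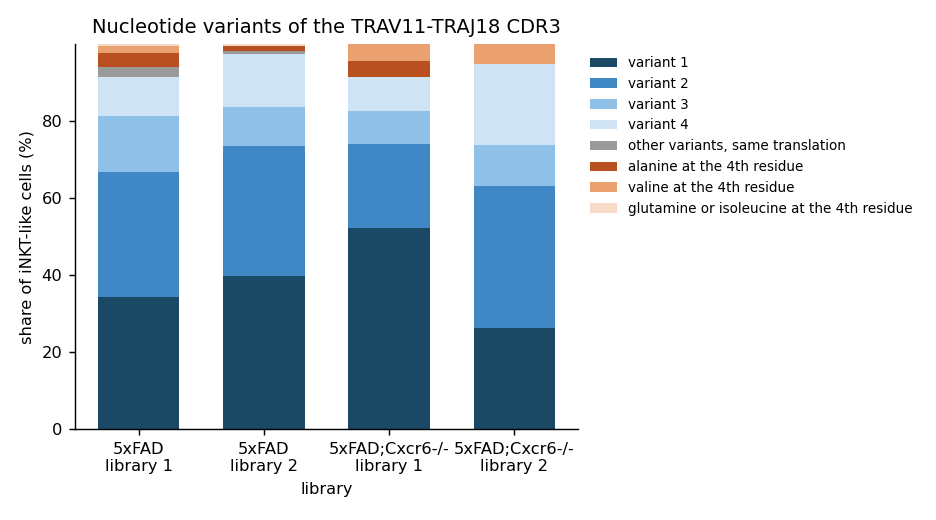
Share of iNKT-like cells (%) with each nucleotide variant of the TRAV11-TRAJ18 CDR3, as 1 stacked bar per library (213, 158, 23 and 19 cells). Blue shades are variants 1 to 4, which all encode glycine at the fourth residue, grey the other variants with the same translation, and orange shades other residues; variant 1 runs from 26.3% to 52.2%.

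Most beta chains of iNKT-like cells used the known partners of the invariant chain. Clones were counted in place of cells, a clone being 1 TRB V segment, J segment and CDR3 nucleotide sequence in 1 library, so that an expanded clone counts once. iNKT-like clones numbered 190, 146, 23 and 19, and other clones 979, 1227, 505 and 951. TRBV13-2, TRBV29 and TRBV1 together were used by 80.0%, 71.2%, 69.6% and 73.7% of iNKT-like clones, and by 24.6%, 22.2%, 22.2% and 20.1% of other clones. The 15 TRBV segments used by iNKT-like clones were unevenly represented. Their effective number (the inverse Simpson index) was 2.70, 3.56, 3.46 and 3.09, against 15.8 to 16.6 in other clones of the same libraries.

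Across the 36 TRBV, TRBJ and TRBD features tested, edgeR's quasi-likelihood test with library as a block called 20 (55.6%) at a Benjamini-Hochberg adjusted p of 0.05. Of these, 6 (16.7%) were higher in iNKT-like clones and 14 (38.9%) were lower. The 3 known partners were all among the 6 higher features, with TRBV13-1, TRBJ1-2 and TRBJ1-5. Without 5xFAD library 1, which holds about as many iNKT-like clones as the rest together, 5 calls were left: TRBV13-2 and TRBV29 higher, and TRBV3, TRBV12-2 and TRBV19 lower. These 5 were also the only calls kept under every alternative that gave them a value. DESeq2 called 12 features, 2 of them higher. The shares of the 4 libraries did not overlap between the classes for 18 features (50%).

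TRBV13-2 (GRCm38, chromosome 6, 41121396 to 41121832, plus strand), a Vβ8 segment and the main partner, made up 57.4%, 47.3%, 43.5% and 52.6% of iNKT-like clones. Its share of other clones was 12.1%, 11.7%, 11.3% and 10.9%, so every iNKT-like value lay far above every other value. The means were 50.2% ± 6.09 and 11.5% ± 0.492 (SD, n = 4), a log2 fold change of 2.13 with SE 0.11 and adjusted p = 1.70e-08 by edgeR. The germline end of TRBV13-2 is shown with those of TRBV29 and TRBV1, since these are the bases each partner brings to the CDR3. All are on the plus strand of GRCm38 chromosome 6: TRBV13-2 at 41121817 to 41121832, TRBV29 at 41271865 to 41271881 and TRBV1 at 40891869 to 40891885.
TRBV13-2 germline end: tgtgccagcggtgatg
TRBV29 germline end: tgtgctagcagtttatc
TRBV1 germline end: tgcacctgcagtgcaga

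TRBV29 (chromosome 6, 41271394 to 41271881), the Vβ7 partner, made up 14.2%, 12.3%, 21.7% and 10.5% of iNKT-like clones and 7.05%, 5.22%, 5.74% and 4.10% of other clones. The classes did not overlap, and the log2 fold change was 1.19 with SE 0.21 and adjusted p = 8.60e-04 by edgeR. TRBV1 (chromosome 6, 40891229 to 40891885), the Vβ2 partner, made up 8.42%, 11.6%, 4.35% and 10.5% of iNKT-like clones against 5.05% to 5.52% of other clones. It was higher in 3 of 4 libraries, and 5xFAD;Cxcr6-/- library 1, with 1 such clone, was below. Its log2 fold change was 0.83 with SE 0.25 and adjusted p = 0.0142 by edgeR, and it was not called without 5xFAD library 1 (0.0675), without 5xFAD library 2 (0.183) or by DESeq2 (0.157).

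TRBV13-1 and TRBV13-3, also of the Vβ8 family, were not tested against each other. TRBV13-1 (chromosome 6, 41116007 to 41116468) made up 11.1%, 13.7%, 21.7% and 0% of iNKT-like clones against 5.68% to 7.66% of other clones (0.77 on the log2 scale with SE 0.27, adjusted p = 0.0286 by edgeR). It was not called without 5xFAD library 1 (adjusted p = 0.165 by edgeR), without 5xFAD library 2 (0.111) or by DESeq2 (0.218). The library with 0 such clones held 19 iNKT-like clones, which allows a share of up to 15.8%. TRBV13-3 (chromosome 6, 41130147 to 41130585) made up 3.16%, 9.59%, 4.35% and 10.5% against 7.05% to 7.33%, and was not called (-0.20 on the log2 scale with SE 0.32, adjusted p = 0.613 by edgeR). Without 5xFAD library 1 its log2 fold change was 0.33, and among clones that did not use TRBV13-2 it was 0.67, so its direction depends on the comparison made.

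The shares of the TRBV segments add to 100%, so the common TRBV13-2 lowers the share of all other TRBV segments. Among clones that did not use TRBV13-2, an alternative chosen after the data were seen, edgeR called 12 of 35 features, and all 12 had been called in the same direction before. TRBV29 made up 33.3%, 23.4%, 38.5% and 22.2% of the remaining iNKT-like clones against 4.60% to 8.01% of the remaining other clones (2.08 on the log2 scale, adjusted p = 2.26e-10 by edgeR). For TRBV1 the log2 fold change was 1.71 (adjusted p = 4.70e-06 by edgeR) and for TRBV13-1 it was 1.65 (adjusted p = 1.53e-07 by edgeR). The other 9 calls were lower segments.

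**Figure D2:**
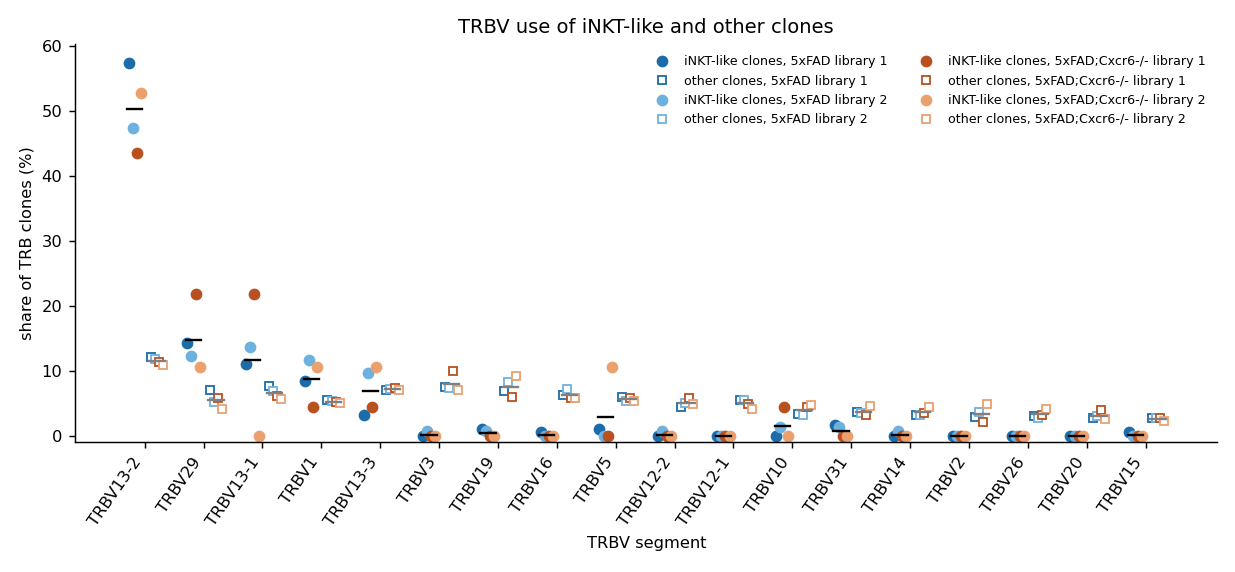
Share of TRB clones (%) that use each TRBV segment, with 1 point per library: filled circles are iNKT-like clones, open squares other clones, and short lines the mean over 4 libraries. Shown are the 5 segments commonest in iNKT-like clones and all other called TRBV segments; TRBV13-2 lies at 43.5% to 57.4% in iNKT-like clones and at 10.9% to 12.1% in other clones.

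Most TRBV segments were nearly or wholly missing from iNKT-like clones. Of the 21 TRBV segments seen, 13 were called lower, and 6 had 0 clones among the 378 iNKT-like clones, which allows up to 0.794% each. TRBV12-1, one of the Vβ5 segments, was used by 185 of 3662 other clones (5.05%) and was at least 6.37-fold lower. For TRBV2 the bound was at least 4.47-fold lower, for TRBV26 at least 4.09-fold and for TRBV20 at least 3.72-fold. TRBV23 and TRBV30 also had 0 iNKT-like clones, but with 27 and 13 other clones they were not called.

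Single clones represented 5 further segments. TRBV3 was used by 1 iNKT-like clone and 282 other clones, a ratio of shares of 0.0344 (95% counting interval 0.000867 to 0.193). TRBV16 was used by 1 and 233 clones, a ratio of 0.0416 (0.00105 to 0.234), and TRBV12-2 by 1 and 180 clones, a ratio of 0.0538 (0.00136 to 0.304). TRBV14 and TRBV15 also had 1 iNKT-like clone each. The edgeR adjusted p was 1.45e-04 for TRBV3, 1.51e-04 for TRBV16 and 8.60e-04 for TRBV12-2.

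TRBV19, a Vβ6 segment, was used by 3 iNKT-like clones and 285 other clones, a ratio of 0.102 (95% counting interval 0.0209 to 0.301). It made up 1.05%, 0.685%, 0% and 0% of iNKT-like clones against 6.84%, 8.23%, 5.94% and 9.15% of other clones (adjusted p = 1.51e-04 by edgeR). TRBV10 (3 clones, adjusted p = 0.028 by edgeR), TRBV5 (4 clones, adjusted p = 0.00895) and TRBV31 (5 clones, adjusted p = 0.0291) were also called lower, and for TRBV10 and TRBV5 the library values of the classes overlapped. Among clones without TRBV13-2 these 3 were not called, with log2 fold changes of -1.20 for TRBV10, -1.50 for TRBV5 and -0.55 for TRBV31 (adjusted p = 0.241, 0.0564 and 0.591 by edgeR). TRBV31 was also not called when any 1 library was left out, with adjusted p-values of 0.0643 to 0.132 by edgeR. TRBV31, the only TRBV segment that lies after the TRBJ clusters and joins by inversion, made up 1.58%, 1.37%, 0% and 0% against 3.17% to 4.63%. TRBV5 reached 10.5% (2 of 19 clones) in 5xFAD;Cxcr6-/- library 2, above the 5.36% of other clones there, and was 0% to 1.05% in the other libraries.

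The TRBJ segments were used more evenly. All 12 TRBJ segments seen occurred in iNKT-like clones, and 3 were called. TRBJ2-7 (GRCm38, chromosome 6, 41543810 to 41543856), the commonest TRBJ of other clones, made up 15.8%, 13.0%, 13.0% and 5.26% of iNKT-like clones against 21.9%, 21.6%, 20.8% and 19.98% (-0.63 on the log2 scale with SE 0.15, adjusted p = 0.00463 by edgeR). TRBJ1-2 (chromosome 6, 41534001 to 41534048) made up 11.1%, 9.59%, 13.0% and 10.5% against 6.23%, 4.89%, 6.73% and 5.57% (0.89 on the log2 scale with SE 0.21, adjusted p = 0.00463 by edgeR). For both segments the iNKT-like and other values did not overlap. TRBJ1-5 (chromosome 6, 41535084 to 41535133) made up 8.42%, 5.48%, 8.70% and 0% against 2.35% to 5.35%, higher in 3 of 4 libraries (1.23 on the log2 scale with SE 0.37, adjusted p = 0.0142 by edgeR).

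None of these 3 calls held within a TRBV class, where fewer clones were compared. Among TRBV13-2 clones (198 iNKT-like and 423 other) the log2 fold change was -0.63 for TRBJ2-7, 0.59 for TRBJ1-2 and 1.20 for TRBJ1-5, with edgeR adjusted p-values of 0.301, 0.452 and 0.301. Among clones without TRBV13-2 they were -0.54, 0.81 and 1.17, with edgeR adjusted p-values of 0.0963, 0.116 and 0.0891. The only call among TRBV13-2 clones was TRBJ1-6, singled out after its values were seen. It was joined to TRBV13-2 in 0 of 198 iNKT-like clones, which allows up to 1.52%, and in 17 of 423 other clones (4.02%), at least 2.65-fold lower (adjusted p = 0.0405 by edgeR).

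By mean share, TRBJ2-4, TRBJ2-5 and TRBJ2-7 were the 3 commonest TRBJ segments of iNKT-like clones. TRBJ2-5 made up 11.6%, 13.7%, 17.4% and 10.5% against 10.1% to 12.5% of other clones and was not called (adjusted p = 0.495 by edgeR). TRBJ2-4 made up 9.47%, 4.79%, 8.70% and 36.8% against 6.93% to 9.15% and was not called either (adjusted p = 0.672 by edgeR). The mean for TRBJ2-4 rests on 5xFAD;Cxcr6-/- library 2, where 7 of 19 clones used it, and its log2 fold change was 0.17 with that library and -0.11 without it. The commonest V-J pairs were TRBV13-2 with TRBJ2-5 (30 clones), TRBJ2-7 (26), TRBJ2-1 (24) and TRBJ1-2 (23).

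A TRBD segment was given for 49, 38, 2 and 3 iNKT-like clones only. TRBD1 was given for 15.8%, 20.5%, 4.35% and 10.5% of iNKT-like clones and for 14.9% to 16.6% of other clones, and TRBD2 for 10.0%, 5.48%, 4.35% and 5.26% against 6.62% to 8.32%. None of the 3 TRBD features, the absence of a segment included, was called. TRBD2 lies after the first TRBJ cluster, and 0 of 19, 0 of 8, 0 of 1 and 0 of 1 iNKT-like clones with TRBD2 used a TRBJ1 segment. With TRBD1, which can join either cluster, 14 of 30, 13 of 30, 1 of 1 and 1 of 2 did.

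**Figure D3:**
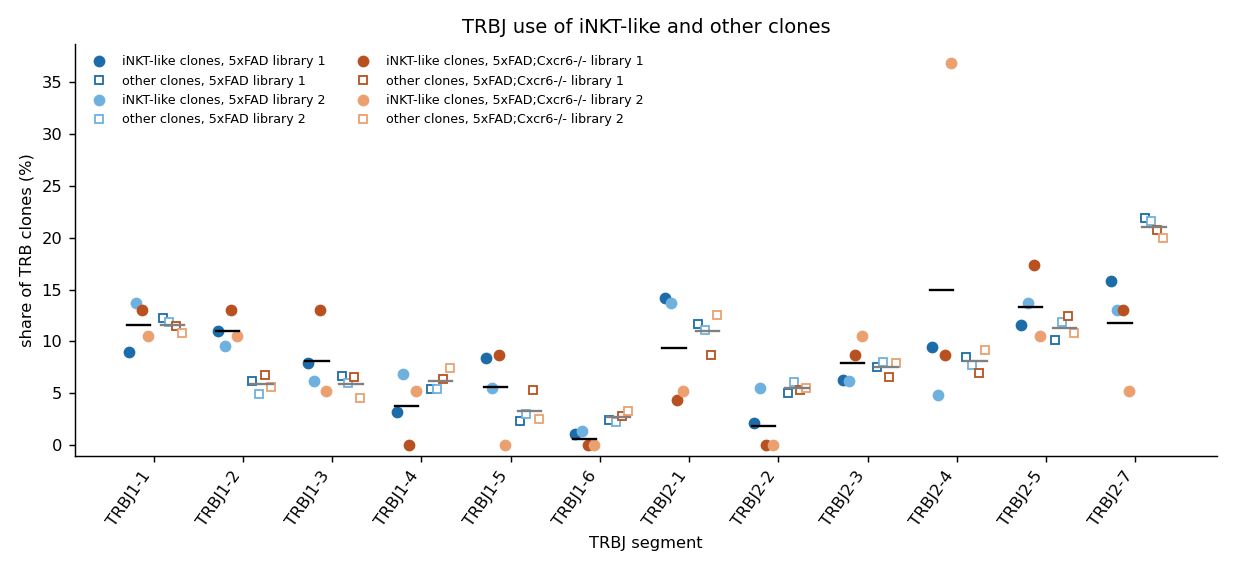
Share of TRB clones (%) that use each TRBJ segment, with 1 point per library: filled circles are iNKT-like clones, open squares other clones, and short lines the mean over 4 libraries. TRBJ2-7 lies below and TRBJ1-2 above the other clones in every library, and the single high point of TRBJ2-4 (36.8%) is 5xFAD;Cxcr6-/- library 2.

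Between genotypes, no segment of the iNKT-like clones was called. Of 20 features tested, edgeR called 0 (0%) at an adjusted p of 0.05 and 0 at an unadjusted p of 0.05, and DESeq2 also called 0 by either count. TRBV13-2 made up 52.3% of iNKT-like clones in 5xFAD and 48.1% in 5xFAD;Cxcr6-/-, and the library values overlapped (-0.15 on the log2 scale with SE 0.33, adjusted p = 0.862 by edgeR). The features with the smallest p were TRBJ2-1, TRBD1 and TRBJ2-2 among lower ones. TRBJ2-1 made up 14.2% and 13.7% of 5xFAD clones, compared with 4.35% and 5.26% in the libraries without CXCR6 (1 clone each), with a log2 fold change of -1.53 with SE 0.86 and adjusted p = 0.862 by edgeR. TRBJ2-2 had 4 and 8 clones in 5xFAD against 0 of 23 and 0 of 19, which allows up to 13.0% and 15.8%, so a difference was not detectable at this depth.

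The features with the smallest p among those higher in 5xFAD;Cxcr6-/- were TRBJ2-4, the absence of a TRBD, and TRBJ2-3. TRBJ2-4 made up 9.47% and 4.79% against 8.70% and 36.8%, so only 1 library stood apart (1.51 on the log2 scale with SE 0.83, adjusted p = 0.862 by edgeR). Clones with no TRBD given made up 74.2% and 74.0% against 91.3% and 84.2% (0.25 on the log2 scale with SE 0.26, adjusted p = 0.862 by edgeR). TRBJ2-3 made up 6.32% and 6.16% against 8.70% and 10.5% (0.60 on the log2 scale with SE 0.81, adjusted p = 0.862 by edgeR).

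The TRB CDR3 of iNKT-like clones was slightly longer in 3 of 4 libraries. Its mean length was 14.4, 14.3, 13.6 and 14.7 residues, against 13.99, 13.8, 13.8 and 13.9 in other clones. The differences were 0.388, 0.463, -0.239 and 0.820 residues, with a mean of 0.358 ± 0.440 (SD, n = 4, exact two-sided sign-flip permutation p = 0.25, where 0.125 is the smallest possible). CDR3s of 12 or fewer residues made up 7.89%, 12.3%, 30.4% and 0% of iNKT-like clones against 15.7% to 17.8% of other clones. CDR3s of 16 or more made up 17.4%, 21.9%, 17.4% and 15.8% against 9.70% to 13.1%, without overlap. The 5xFAD;Cxcr6-/- values there rest on 4 of 23 and 3 of 19 clones, and neither length cutoff was tested. The exception in length was 5xFAD;Cxcr6-/- library 1, where 7 of 23 clones were short.

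Within TRBV13-2, which holds the V segment equal, the mean length was 14.5, 14.5, 13.7 and 14.7 residues against 14.2, 14.04, 14.2 and 13.9. The mean difference was 0.281 ± 0.534 residues (SD, n = 4, exact two-sided sign-flip permutation p = 0.5), again positive in 3 of 4 libraries. By genotype, the mean lengths were 14.3 ± 0.0753 and 14.1 ± 0.761 residues (SD over 2 libraries each, 5xFAD first). The 5xFAD;Cxcr6-/- libraries were the shortest and the longest, and the difference of -0.174 residues was within their spread (exact two-sided permutation p = 1). Without 5xFAD;Cxcr6-/- library 1 it was 0.364 residues, and with chains of at least 3 UMIs only it was 0.013.

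**Figure D4:**
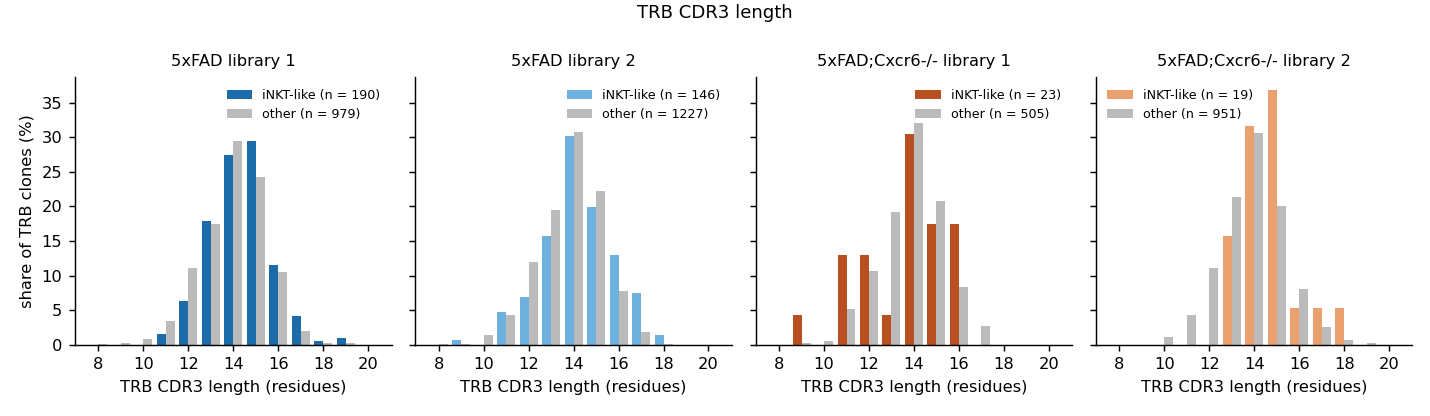
Share of TRB clones (%) by CDR3 length in residues, with 1 panel per library: coloured bars are iNKT-like clones and grey bars other clones, with the number of clones in each legend. Lengths of 16 or more hold 15.8% to 21.9% of iNKT-like and 9.70% to 13.1% of other clones, while in 5xFAD;Cxcr6-/- library 1 (23 clones) 30.4% are of 12 or fewer residues.

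The junctions of TRBV13-2 clones were split into bases that match the germline V end, bases that match the germline J start and the bases between, where the TRBD and added bases lie. iNKT-like clones kept 14.2, 13.9, 14.7 and 15 V bases on average, against 14.3, 13.98, 13.8 and 13.95 in other clones, out of 16 in the germline. They had 10.98, 10.9, 8.40 and 9.70 bases between V and J, against 10.0, 9.83, 10.2 and 9.80. By these means, iNKT-like clones of both 5xFAD libraries had slightly fewer V bases and about 1 more base between than other clones. In both 5xFAD;Cxcr6-/- libraries they had more V bases and fewer between. For V bases in 5xFAD library 1 the direction depends on the summary. The median there was 15 against 14.5, and 54.1% against 50% of clones kept 15 or more. In 5xFAD library 2 the median was 14 in both classes, and 40.6% against 49.3% of clones kept 15 or more. Each 5xFAD;Cxcr6-/- value rests on 10 clones. Over the 4 libraries the mean difference was 0.447 V bases (exact two-sided sign-flip permutation p = 0.5), 0.037 bases between (p = 1) and 0.427 J bases (p = 0.375).

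**Figure D5:**
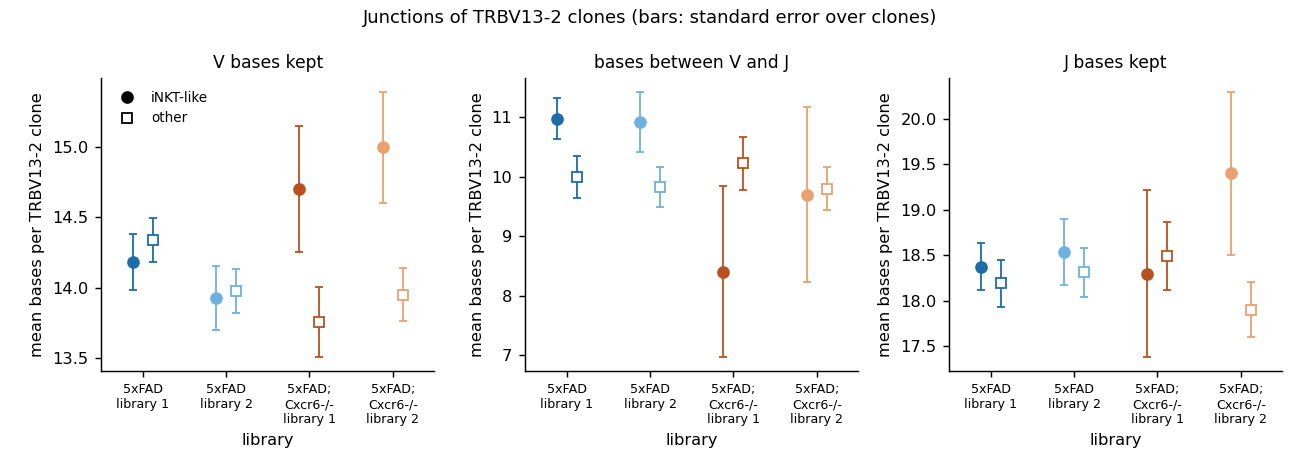
Mean bases per TRBV13-2 clone that match the germline V end (left), lie between the V and J matches (middle) or match the germline J start (right), by library; filled circles are iNKT-like clones, open squares other clones, and bars the standard error over clones. The iNKT-like points lie at 10.98 and 10.9 bases between V and J in 5xFAD and at 8.40 and 9.70 in 5xFAD;Cxcr6-/-, where 10 clones stand behind each.

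Residues in the centre of the CDR3 were counted after the first 4 and last 5 were left out, within TRBV13-2 so that both classes have the same germline V end. What V adds still depends on trimming, since the fifth residue was counted. The germline V end matched through the fifth codon in 54.1%, 40.6%, 50% and 70% of iNKT-like clones. In other clones it did so in 50%, 49.3%, 38.6% and 45.2%. Of 18 residues tested, edgeR called 0 (0%) at an adjusted p of 0.05, 1 had an unadjusted p below 0.05, and DESeq2 called 0, also by unadjusted p. That residue was leucine, with 2.33%, 1.59%, 0% and 0% of central residues in iNKT-like clones against 4.10%, 3.03%, 3.74% and 2.17% in other clones (adjusted p = 0.832 by edgeR). Glycine, which the TRBD segments encode, was the commonest in both classes, with 24.6% to 27.9% against 24.5% to 26.2%. Aspartate made up 12.8% to 15.3% against 14.7% to 17.5%. It was second by the mean over libraries, but among iNKT-like clones alanine (14.9%) exceeded it in 5xFAD;Cxcr6-/- library 1 and serine (15.8%) in library 2. The 5xFAD;Cxcr6-/- libraries gave only 47 and 57 central residues of iNKT-like clones.

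Across all TRBV segments, 4 residues were called, and there the V segments of the classes differ. Leucine made up 3.53%, 3.90%, 3.77% and 2.78% against 6.51% to 7.18% (-0.96 on the log2 scale, adjusted p = 4.74e-04 by edgeR), and phenylalanine was also lower. Aspartate made up 14.4%, 11.3%, 13.2% and 9.26% against 8.32% to 8.69% (0.60 on the log2 scale, adjusted p = 9.26e-04 by edgeR), and alanine was also higher. Within TRBV13-2, where none of the 4 was called, the log2 fold change was -0.99 for leucine (SE 0.49) and -0.76 for phenylalanine (SE 0.86). There it was -0.10 for aspartate (SE 0.15) and 0.056 for alanine (SE 0.18). Whether V use accounts for the 4 calls was not tested. The fifth codon of the germline TRBV13-2 end encodes aspartate, and the fifth residue is the first that was counted.

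Expanded iNKT-like clones were few and small. Of 378 clones, 16 held 2 or more cells, 9 in 5xFAD library 1 and 7 in 5xFAD library 2, and 12 of the 16 held exactly 2 cells. All 16 carried a single nucleotide variant of the invariant alpha chain in every cell. In 5xFAD;Cxcr6-/- 0 of 23 and 0 of 19 clones were expanded, which allows up to 13.0% and 15.8%. The 3 clones of 5 or more cells are shown with their TRB CDR3, where capitals mark bases found in neither the germline V end nor the germline J start. They held 10 and 7 cells in 5xFAD library 1 and 7 cells in 5xFAD library 2, in the order shown.
TRBV13-2 TRBJ2-2 clone: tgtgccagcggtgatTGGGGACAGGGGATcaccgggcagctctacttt
TRBV13-2 TRBJ2-7 clone: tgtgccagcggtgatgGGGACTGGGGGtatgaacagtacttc
TRBV29 TRBJ1-1 clone: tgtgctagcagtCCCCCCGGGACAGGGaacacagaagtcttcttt

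These 3 clones used known partner segments, with CDR3s of 16, 14 and 15 residues. The first 2 carried variant 1 of the alpha CDR3 and the third carried variant 4. The largest clone kept 15 V bases and 19 J bases with 14 bases between, and TRBD1 was given for it. No TRB sequence of an iNKT-like clone was found in 2 libraries, neither by nucleotides nor by amino acids (0 of 378, which allows up to 0.794%). Of the other clones, 5 nucleotide and 18 amino-acid sequences were shared, out of 3630 distinct amino-acid sequences, and the classes were not tested for a difference.

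A second alpha chain was found in 21 iNKT-like cells, which had 1 TRA besides the invariant one. They made up 4.23% (9 of 213, interval 1.95 to 7.87), 5.70% (9 of 158, 2.64 to 10.5), 13.0% (3 of 23, 2.78 to 33.6) and 0% (0 of 19, 0 to 17.6). Among other cells with at least 1 TRA the shares were 8.37%, 9.15%, 11.4% and 8.28%. The share was lower in iNKT-like cells in 3 of 4 libraries, with a mean difference of -3.56 ± 4.07 percentage points (SD, n = 4, exact two-sided sign-flip permutation p = 0.25). By genotype the means were 4.96% ± 1.04 and 6.52% ± 9.22 (SD, n = 2), and the 5xFAD;Cxcr6-/- libraries were the highest and the lowest (exact two-sided permutation p = 1). Without 5xFAD;Cxcr6-/- library 1 the difference was -4.96 percentage points, and without 5xFAD;Cxcr6-/- library 2 it was 8.08.

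The second chains were diverse. The 21 chains, 20 of them distinct, used 14 TRAV and 15 TRAJ segments, from TRAJ2 to TRAJ49. Of the 21, 6 were also in another cell of the same library, 4 of them in a cell with the same single TRB. TRAV3D-3 with TRAJ5 in 5xFAD library 2 and TRAV17 with TRAJ49 in 5xFAD;Cxcr6-/- library 1 recurred without such a cell. Whether every second chain belongs to its cell was not tested. TRAJ segments are numbered against the direction of transcription, so those above 18 lie on the TRAV side of TRAJ18, and 13 of the second chains (61.9%) used one of these while 8 used one below 18. Of 5027 TRA chains of other cells, 78.2% used a TRAJ above 18, but these chains come mostly from cells with a single TRA. The median distance from TRAJ18 was 10 TRAJ numbers, and the median distance between the 2 chains of 415 other cells with 2 TRA was 6. These distances are unlike measures, because the rule fixed TRAJ18 in iNKT-like cells and fixed neither chain in the others. No difference was tested. The median UMI count was 3 for the second chains and 3 for the invariant chains of the same cells, with 9 second chains above and 8 below the invariant chain in UMIs.

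Some beta chains of iNKT-like cells also occurred in cells that the rule left out. Of 378 iNKT-like clones, 14 had the same TRB in 20 other cells of the same library, of which 11 had no TRA recorded and 9 had 1 or 2 TRA. In 5xFAD library 2 a TRBV12-2 with TRBJ2-7 chain was in 2 iNKT-like cells, both with TRAV8D-2 joined to TRAJ11 as second TRA. For each of them, 6 further cells held both that second TRA and that TRB. The 6 include the other of these 2 iNKT-like cells. These 2 cells are the only iNKT-like cells with TRBV12-2.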

How the data were processed

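Receptor chains were sequenced from droplet libraries (10x Chromium, Immune Profiling kit, v2), per the labels' protocols, and Cell Ranger 6.0 with build mm10 is named per the submitters' processing notes. The receptor reference and command are not given in the sources used here. The deposited tables list 12792 assembled contigs, all productive, with raw UMI and read counts per contig, per the file headers. The 4 expression samples were not analysed here.

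The members, lists and tests were chosen with earlier results of these data known. Cells with exactly 1 TRB were split by the invariant chain, and cells with 0 or 2 TRB were left out. No doublet caller was run. The label TRBV12-2+TRBV13-2 was counted as TRBV13-2, since the V sequence of all 728 such contigs equalled TRBV13-2. Contig counts were not normalized. The number of clones per segment was tested with edgeR 4.0.16 (R 4.3.3): quasi-likelihood F test, log clone total as offset, library as a block, features with at least 10 clones (5 between genotypes), Benjamini-Hochberg over all features at 0.05. SEs are the fold change divided by the root of F, or by the normal quantile of p where edgeR bounds p by its Poisson test. DESeq2 1.42.0 was an alternative. The edgeR p-values for segments rest on counts of clones, and those for residues on counts of residues, of which 1 clone can give several. The spread is estimated jointly over the features of a fit. Other values were compared over libraries with exact permutation tests in Python 3.11.15. Germline ends and coordinates are from GENCODE M21 (GRCm38, the build that mm10 names). A match is the longest exact run from each end, so a chance match of an added base counts as germline. TRBV10, a pseudogene in this annotation, gave no germline end. The code was tested on simulated data.

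Named segments are TRBV13-2, TRBV29 and TRBV1, every segment called in either segment test, the 5 TRBV and 3 TRBJ that iNKT-like clones used most by mean share, and, between genotypes, the 3 lowest p-values in each direction. Named sequences are the 3 commonest variants, variants with another translation in 2 or more cells, the germline ends of TRAV11 and TRAJ18, and clones of 5 or more cells. Variants 4 and 6 and the TRBV germline ends were added later. Alternatives covered UMI minimum, barcodes in more than 1 library, cells in place of clones, the TRA count of other cells, scaling, the low-count filter, the CDR3 stretch, and leaving out each library.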

Additional observations from a re-analysis of the deposited data

Results flagged for a closer look

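For 2 measures of the junction in TRBV13-2 clones, the mean difference between iNKT-like and other clones had opposite signs in the 2 genotypes. They were picked by a rule that looks for this split of signs, whatever the size of the differences. The bases between the V and J matches gave differences of 0.982 and 1.09 bases in 5xFAD. Without CXCR6 the differences were -1.83 and -0.0981 bases. The V bases kept gave -0.155 and -0.0516 in 5xFAD, and 0.946 and 1.05 without CXCR6. The difference between the genotypes was not tested. Some of these signs rest on very small values. The -0.0981 bases compare with an SD of 4.67 over the iNKT-like clones of 5xFAD;Cxcr6-/- library 2. The -0.0516 V bases compare with an SD of 1.87 over those of 5xFAD library 2. By median, V bases in 5xFAD library 1 pointed the other way (15 against 14.5). Each 5xFAD;Cxcr6-/- value rests on 10 iNKT-like clones.

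The invariant TRA was also found in cells that the comparisons leave out. Among cells with 2 TRB it was present in 22.0% (18 of 82) and 15.9% (14 of 88) in 5xFAD, where a count of 0 would allow up to 3.66% and 3.41%. In 5xFAD;Cxcr6-/- it was present in 1 of 61 and 3 of 55 cells with 2 TRB, 1.64% and 5.45%, where the limits were 4.92% and 5.45%. Among cells with 1 TRB the invariant TRA was present in 10.98% and 6.72% in 5xFAD, and in 3.36% and 1.52% in 5xFAD;Cxcr6-/-. Cells with 1 and 2 TRB were not tested against each other. Among cells with 0 TRB the shares in 5xFAD were 19.1% (9 of 47) and 5.95% (5 of 84). The limits there were 6.38% and 3.57%. In 5xFAD;Cxcr6-/- the shares were 5% (1 of 20) and 0% (0 of 26), with limits of 15% and 11.5%.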

How the results depend on the processing

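The count of TRB segments called between iNKT-like and other clones (20) was 5 to 19 when 1 library was left out, 12 by DESeq2, 12 among clones without TRBV13-2 (35 features tested) and 1 among TRBV13-2 clones (15 features tested). Apart from the DESeq2 call set, fewer clones or features entered these fits. The 20 called segments kept their direction in all 242 values the alternatives gave and lost the call in 42. Residues called were 4 with all TRBV in place of TRBV13-2, and 0 otherwise. Segments called between genotypes stayed at 0. With the replicate number as a block, the paired fit called 0, and the differences between genotypes were 2.17 percentage points for variant 1, -0.174 residues for length and 1.56 percentage points for the second TRA. Across the 20 tested segments the deviations of equally numbered libraries correlated at 0.232, over 2 pairs, and the labels do not say whether the number pairs them.

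Leaving out 1 library moved the difference between genotypes from -10.8 to 15.1 percentage points for variant 1, from -0.712 to 0.364 residues for length and from -4.96 to 8.08 percentage points for the second TRA. With at least 3 UMIs per chain the length difference was 0.013. The bases between V and J differed by -0.026 without barcodes of more than 1 library, by -0.024 against other cells with 1 or 2 TRA, and by -0.315 to 0.659 when 1 library was left out. Uncalled segments that turned were TRBJ2-4 (-0.11 to 0.53 when 1 library was left out, -0.0048 without TRBV13-2 clones), TRBJ2-5 (-0.092 without TRBV13-2 clones) and TRBV13-3 (-0.84 to 0.33, 0.67 without TRBV13-2 clones). The cause was not tested. The 23 and 19 iNKT-like cells of 5xFAD;Cxcr6-/- set the precision of every comparison between genotypes.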

Other observations

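The 25 iNKT-like cells whose TRBV lay outside the TRBV13 family, TRBV29 and TRBV1, a grouping made after the values were seen, used 10 TRBV segments. Of these cells 5 (20%, interval 6.83 to 40.7) had a second TRA, against 16 of the 388 cells with those partners (4.12%, interval 2.38 to 6.61). The 5 were 1 of 12 in 5xFAD library 1, 4 of 9 in 5xFAD library 2, 0 of 1 and 0 of 3. They are the 2 TRBV12-2 cells of 1 clone and 1 cell each with TRBV10, TRBV14 and TRBV16. The median UMI count of the invariant chain was 3 in both sets, and 16% and 16.5% of cells had 1 UMI of it. Another translation of the invariant CDR3 was carried by 2 of 25 and 17 of 388 cells. These cells made up 5.63%, 5.70%, 4.35% and 15.8% of iNKT-like cells in the 4 libraries.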
